A study of Mus musculus with 6 samples.

Results

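The Cd69 and Clec2d locus was described here through every T-bet ChIP-seq peak that overlapped the window on chromosome 6 from 129.08 to 129.32 Mb (mouse build mm9, positions counted from 1). The window held 18 of the 8925 deposited peaks: 11 of 7996 in wild-type (WT) replicate 1, 6 of 851 in WT replicate 2 and 1 of 78 in the T-bet knockout (KO) library. All 3 libraries were made from induced regulatory T cells (iTreg cells) of Balb/c mice aged 4 to 10 weeks. Naive CD4 cells were sorted, stimulated through plate-bound antibodies to CD3 and CD28 (10 µg/ml each), then cultured over 7 days with human TGF-β1 at 33 ng/ml and IL-2 at 20 ng/ml. Chromatin of each genotype was precipitated with the same rabbit serum against T-bet, so the KO library carries the signal that this serum gives in cells labelled as lacking its target. The KO allele, the number of mice and whether the WT replicates were separate cultures were not stated in the labels. The cells were differentiated in culture and are labelled as iTreg, and peak lists hold no expression value that could check that label or the knockout. The window was selected on its deposited peak positions and scores, those of the KO peak among them, so its peak numbers, ranks and scores are a description and were not tested.

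Cd69 encodes a C-type lectin-like membrane protein that T cells display early after activation; it binds the sphingosine-1-phosphate receptor S1PR1 and holds lymphocytes in tissue. Clec2d, also called Clr-b or Ocil, encodes a related membrane protein that is a ligand of the inhibitory NKR-P1B receptor of natural killer cells. Both belong to the natural killer gene complex, a dense array of lectin-like receptor genes. T-bet, the product of Tbx21, is a T-box factor that directs type 1 helper programmes and is also used by a subset of regulatory T cells. T-box factors recognise DNA through a core of the letters TCACAC, often as TCACACCT.

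In the RefSeq gene table (GRCm38.p6), both members were found, and 2 long non-coding RNA genes, Gm38906 and 2310001H17Rik, lay between Clec2d and Cd69, with Clec2m beyond Cd69. That table is of another build than the peaks, so gene order was taken from it and no peak was placed in a promoter, exon or intron. The sequence of a member promoter is shown as reference for the T-box letters: the 250 bases before the Clec2d start, from the RefSeq promoter table (GRCm38.p6, plus strand, 5′ to 3′, all in lower case because neither T-box word occurred on either strand).
Clec2d: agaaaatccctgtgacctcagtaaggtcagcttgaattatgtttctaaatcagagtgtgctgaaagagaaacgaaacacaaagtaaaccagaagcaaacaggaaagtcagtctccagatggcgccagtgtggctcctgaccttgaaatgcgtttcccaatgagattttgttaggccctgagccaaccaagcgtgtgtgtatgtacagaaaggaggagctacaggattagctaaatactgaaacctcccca
Matched on both strands, TCACAC was present in 12.3% of the 32851 promoter windows of that length in the table, and TCACACCT, which contains it, in 1.12%.

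The 18 peaks formed 12 sites when peaks with at least 1 bp in common were joined, labelled here A to L in order of position. Both WT lists held 5 of the sites, A, B, I, J and K; 6 sites were in replicate 1 only and 1, site C, in replicate 2 only. The KO peak lay in site J and no other. Of the 6 replicate 2 peaks, 5 met a replicate 1 peak (83.3%, exact 95% binomial interval 35.9 to 99.6%), beside 85.4% of that whole list, so the window was near the background in this direction. Conversely, 5 of the 11 replicate 1 peaks met a replicate 2 peak (45.5%, 16.7 to 76.6%), beside 9.50% of the whole list. This share was above the background, but the window was proposed for its peaks and the difference was not tested. The intervals cover counting error over peaks only, and peaks are not replicates. The sites fell into 5 groups when those at most 10 kb apart were joined. Sites A to C spanned 2.80 kb, and sites D to I, which began 17.4 kb further on, spanned 8.09 kb. Site J followed after a gap of 28.7 kb, site K after 17.3 kb and site L after 27.5 kb.

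**Figure D1:**
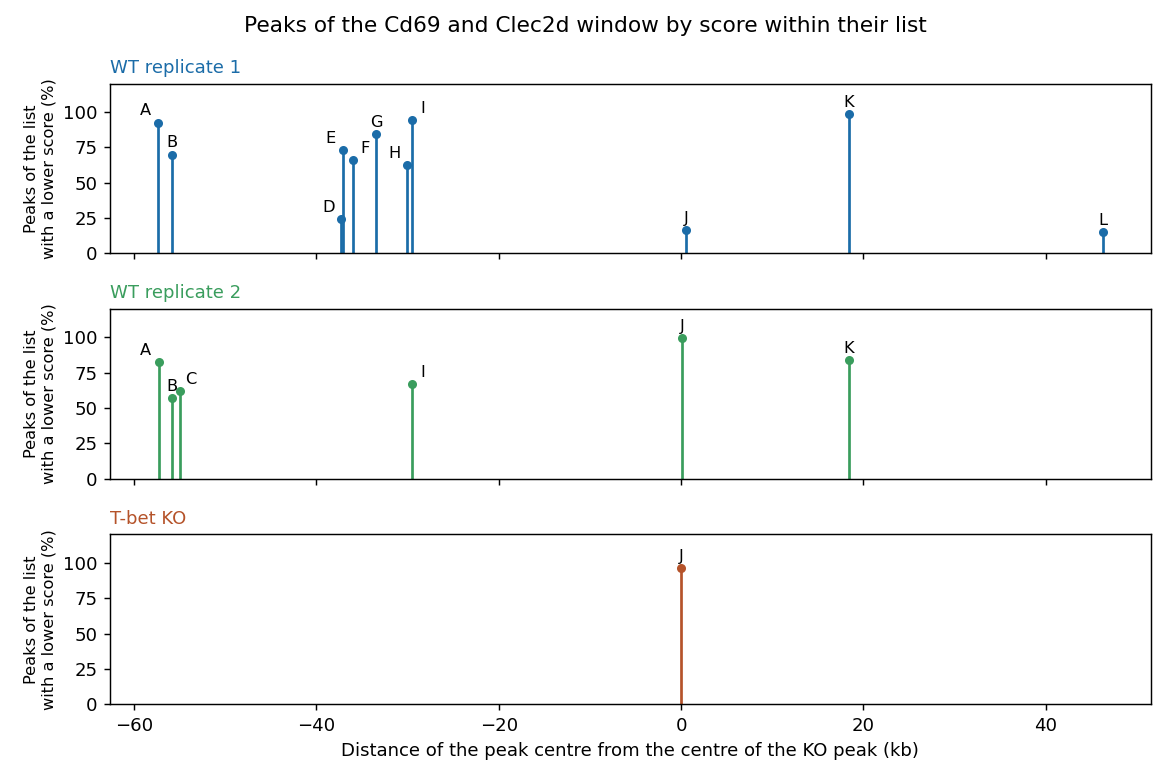
Position and score rank of the peaks in the Cd69 and Clec2d window, with 1 panel per library. The x axis gives the distance of each peak centre from the centre of the KO peak in kb, and the y axis the percentage of that library's own list with a lower score; letters name the sites. Site J stands at 99.5% in WT replicate 2 and 96.2% in the KO list but at 16.3% in WT replicate 1, and site K stands at 98.7% in WT replicate 1.

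Site J, the site with KO signal, was the widest of the 12 and ranked high in 2 of the 3 lists. The KO peak ran from 129215850 to 129217029, was 1180 bp wide and had a deposited score of 557, the third highest of the 78 KO peaks. The replicate 2 peak ran from 129215834 to 129217201, was 1368 bp wide and scored 786, the fourth highest of 851 and the highest of its 6 peaks in the window. The replicate 1 peak ran from 129216923 to 129217067, was 145 bp wide and scored 79.9, which ranked 6655th of 7996. By width it ranked 6129th, with 22.2% of that list narrower and a list median of 175 bp. It lay toward one edge of the site, with its centre 556 bp from the centre of the KO peak. The score is the peak caller's own value on a scale that is not stated, so ranks describe each list and are not compared between lists as a change in binding.

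At site J the starts of the replicate 2 and KO peaks were close, and the replicate 1 peak started far inside both. The KO peak lay wholly inside the replicate 2 peak; their starts were 16 bp apart, their ends 172 bp apart, and they shared 86.3% of their joint length. Over the 46 overlapping pairs of a KO and a replicate 2 peak in the genome, the median shared length was 77.8%, and the pair of site J ranked 15th. The replicate 1 peak started 1073 bp after the KO peak and 1089 bp after the replicate 2 peak. Its end was nearer: it lay 38 bp beyond the KO end and 134 bp before the replicate 2 end. The KO and replicate 1 peaks shared 107 bp, or 8.78% of their joint length. That was the lowest of the 44 overlapping pairs of a KO and a replicate 1 peak, whose median was 58.7% and whose next lowest value was 12.7%. With the replicate 1 peak counted, 1 of the 11 replicate 1 peaks met a KO peak, beside 0.550% of that whole list. In replicate 2 it was 1 of 6, beside 5.41%. The window was chosen for this KO peak, so nothing is read from these shares.

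The replicate 1 counterpart of the KO peak was also weak among such counterparts. Of the 78 KO peaks, 42 met a replicate 1 peak, and the highest replicate 1 score at each had a median of 279. None of the 42 had a lower value than the 79.9 of site J; among the 44 single pairs, 1 had a lower score, 78.3, at a KO peak that met a second, higher replicate 1 peak. Against replicate 2, with 46 KO peaks met, the median was 142, and 2 had a higher value than the 786 of site J. Replicate 2 and the KO library share a leading number in the names of their deposited lists that replicate 1 does not have. What this number marks is not stated. If it stands for a batch, batch and replicate cannot be told apart here.

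**Figure D2:**
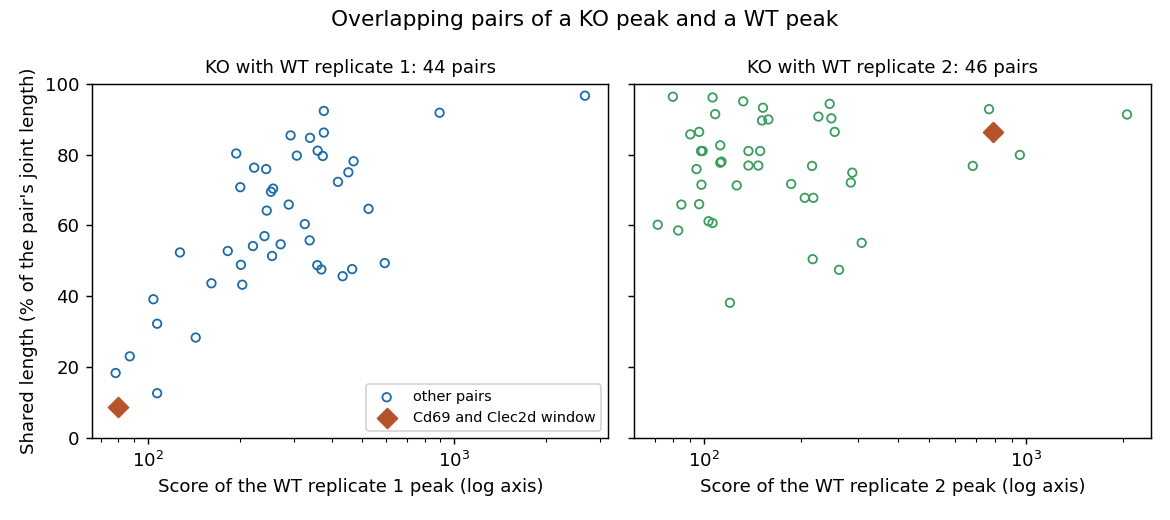
Overlapping pairs of a KO peak and a WT peak across the genome, with WT replicate 1 on the left and WT replicate 2 on the right. The x axis gives the deposited score of the WT peak on a log axis and the y axis the shared length as a percentage of the pair's joint length; the diamond is site J. It stands at 8.78% and a score of 79.9 in replicate 1, and at 86.3% and a score of 786 in replicate 2.

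The 4 other sites of both WT lists, A, B, I and K, had no KO peak. The 78-peak KO list is short and its depth unknown, so a missing KO peak does not show that a site lacks KO signal. Site K was the strongest of them in both lists. Its replicate 1 peak ran from 129234458 to 129235210 with a score of 622, which ranked 102nd of 7996, and its width of 753 bp ranked 24th. Its replicate 2 peak ran from 129234459 to 129235187 with a score of 189, which ranked 135th of 851, and its width of 729 bp ranked 27th. The peaks of site K started 1 bp apart and ended 23 bp apart. They shared 96.8% of their joint length, the eighth highest of the 760 pairs of a replicate 1 and a replicate 2 peak, against a median of 75.7%. Site K lay 17.3 kb beyond site J, so a site with close boundaries in both WT libraries and no KO peak was the next one to the site with the KO peak.

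Site I came next by the replicate 1 score. Its replicate 1 peak, from 129186757 to 129187157, scored 336, and its replicate 2 peak, from 129186736 to 129187129, scored 133; they shared 88.4% of their joint length. Site A, the first of the window, had a replicate 1 peak from 129158891 to 129159284 with a score of 298. Its replicate 2 peak, from 129158888 to 129159463, scored 180 and reached 179 bp further, so the pair shared 68.4%. Site B scored 147 in replicate 1, from 129160462 to 129160797, and 118 in replicate 2, from 129160467 to 129160765, with 89.0% shared. The shared length was thus above the genome median of 75.7% at B, I and K and below it at A. At J it was 10.6%, which ranked 754th of 760. Order by score differed between the replicates: K, I, A, B, J in replicate 1 and J, K, A, I, B in replicate 2. Without site J, the orders differed in the places of I and A only.

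**Figure D3:**
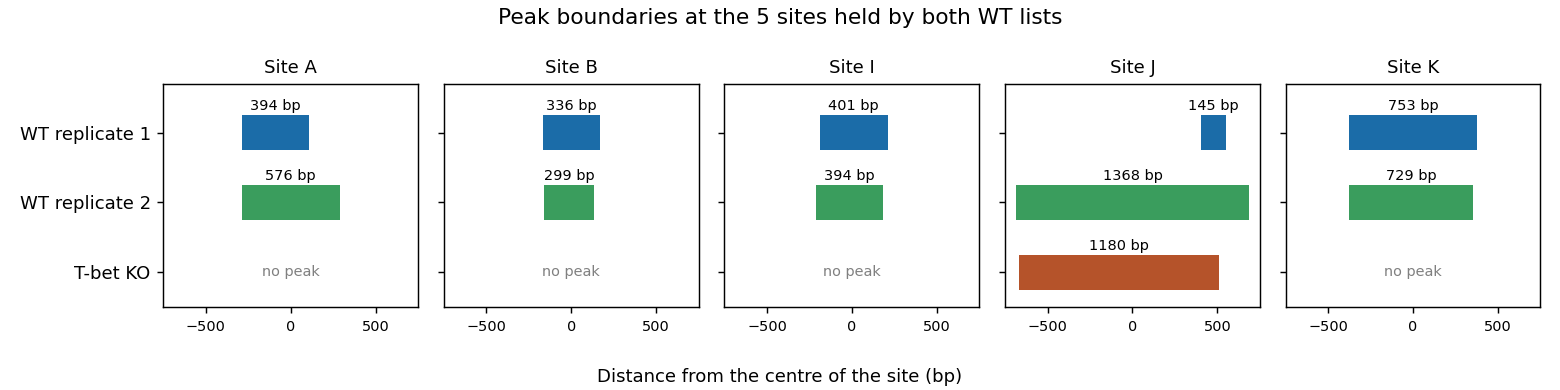
Extent of each peak at the 5 sites held by both WT lists. The x axis gives the distance from the centre of the site in bp, each bar is 1 deposited peak of the library named on the left, and the number above it is its width. At site J the KO and replicate 2 bars are 1180 and 1368 bp wide and the replicate 1 bar 145 bp, while at site K the WT bars are 753 and 729 bp wide.

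Sites of a single WT list lay mostly between sites C and I. Replicate 1 had 6 peaks without a replicate 2 counterpart, with scores of 79.4 to 210 (median 133) and widths of 129 to 317 bp. Of these, 5 were sites D to H, in the 8.09 kb that end with site I. The highest was site G, from 129182902 to 129183218, with a score of 210, which was above that of 84.2% of the replicate 1 list. Sites D (129179072 to 129179200, score 85.2) and E (129179225 to 129179446, score 156) were 24 bp apart. Sites F (129180243 to 129180556) and H (129186244 to 129186540) scored 138 and 128. Site L, from 129262682 to 129262828, stood alone 27.5 kb beyond K with a score of 79.4, the lowest of the window. Site C, held by replicate 2 alone, ran from 129161356 to 129161688 with a score of 126; it lay 0.558 kb from site B. The 4 KO-free sites of both WT lists had replicate 1 scores of 147 to 622 (median 317), so the lower end of that range lay within the range of the sites that replicate 2 did not hold.

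The peaks of the window spanned 104 kb in replicate 1 and 76.3 kb in replicate 2. Distances to the next peaks are given without a typical spacing of each list, so they do not show that the locus is isolated. Of the 52 replicate 2 peaks on chromosome 6, 6 lay in the window, and the nearest others were 1.97 Mb below its first peak and 2.09 Mb above its last. In replicate 1, 11 of 456 peaks on the chromosome lay in the window, and the nearest others were 365 kb below and 368 kb above. The nearest other KO peak, which began at 132413673, was 3.20 Mb from site J. When the 19 autosomes and X were cut into windows of 240 kb, 37 of the 3331 windows with a replicate 1 peak held at least 11. For replicate 2, 5 of 601 held at least 6. The window that contains this locus is among them in both counts.

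The surroundings of the KO peak were then set beside those of the other KO peaks. Within 120 kb of the centre of the KO peak lay 4 replicate 1 peaks that met a replicate 2 peak and no KO peak. For 57 of the 78 KO peaks there was none, and 3, that of site J included, had 4 or more. The other two, singled out once these values were known, lay on chromosome 16 from 84717410 to 84717843 (score 99.8) with 5 such peaks and on chromosome 17 from 35335561 to 35336238 (score 140) with 4. Both met a replicate 2 peak and no replicate 1 peak. The 3 other KO regions with the highest KO scores, after joining KO peaks within 50 kb, had few such neighbours within 120 kb. The region on chromosome 3 from 37018254 (score 1138) had 1, and those on chromosome 17 from 4626159 (score 793) and on chromosome 11 from 86394688 (score 467) had 0. In the same order, these regions had 2, 1 and 1 replicate 2 peaks within 120 kb, against 6 for the region of site J. A counted neighbour must meet a replicate 2 peak, so few replicate 2 peaks left little room for neighbours. Replicate 1 peaks within 120 kb numbered 5, 1 and 7 in the same order, against 11 for the region of site J. A KO region on chromosome 12 from 55811211 also had 6 replicate 2 peaks, with 2 such neighbours. The contrast was not tested.

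By width, the KO peak of site J ranked 10th of 78. Peaks of at least 1000 bp numbered 9 in replicate 1, 9 in replicate 2 and 11 in the KO list, out of 7996, 851 and 78. Most of the 11 wide KO peaks lay near each other on chromosome 8, between 19723363 and 19957135, and were wider than that of site J. The 11 are thus not all separate places. Of the 11 wide KO peaks, 5 met a replicate 2 peak that was also that wide and none met a wide replicate 1 peak. The 9 wide replicate 1 peaks met no replicate 2 or KO peak of any width. At any width, 5 of the 11 met replicate 2 and 2 met replicate 1, beside 46 and 42 of all 78 KO peaks. The 5 comprised site J, the chromosome 3 peak above, peaks on chromosome 11 from 86395197 to 86396914 and from 87571670 to 87572701, and one on chromosome 8 from 19939288 to 19941816. Their KO and replicate 2 peaks shared 76.8 to 94.3% of their joint length. The chromosome 8 pair had low scores, 115 in the KO list and 90.4 in replicate 2, where site J had 557 and 786. Replicate 1 had a peak at 2 of these 5 places, in both narrower than the KO and replicate 2 peaks there. It was 145 bp wide at site J and 219 bp wide on chromosome 11 from 86395772 to 86395990, where it scored 107. The replicate 1 peak there lay 174 bp from the centre of the KO peak, nearer than the 556 bp at site J.

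**Figure D4:**
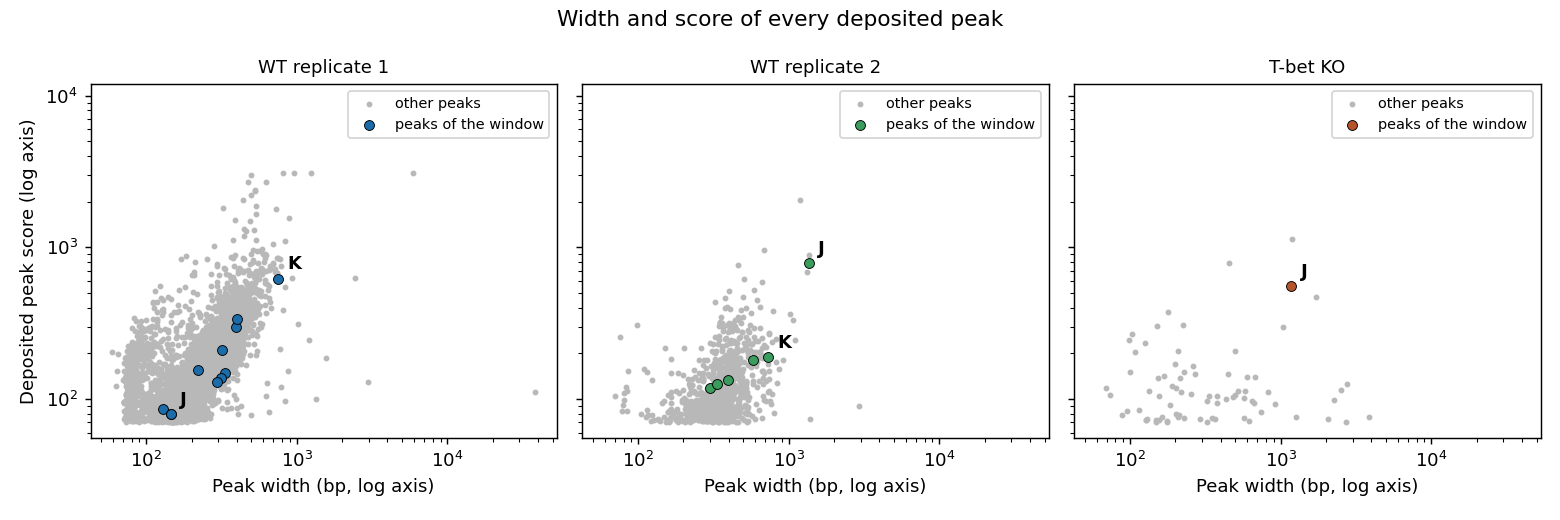
Width and deposited score of every peak in the 3 lists, 1 panel per library, both axes on a log scale; grey points are peaks elsewhere and coloured points are the peaks of the Cd69 and Clec2d window. Site J is among the widest and highest-scoring peaks in WT replicate 2 (1368 bp, score 786) and the KO list (1180 bp, score 557). In WT replicate 1 (145 bp, score 79.9) it lies below the list medians of 175 bp and a score of 108. Site K (753 bp, score 622) is the highest of the window in WT replicate 1.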

How the data were processed

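T-bet ChIP-seq peak lists of 2 WT and 1 KO iTreg libraries were analysed; the 3 input libraries were not analysed here. Per the submitters' processing notes, CASAVA, Bowtie2, MACS 1.4 and mm9 were used; the settings, read filters and controls behind the peaks were not given in the sources used here. The authors deposited 1 list per library, with chromosome, start, end, peak name and a score, so replicates were not pooled. The deposited score is the peak caller's value, on a scale not stated, with none below 70.10; it was used to rank or filter peaks within a list. Depth is unknown, which limits any reading of list lengths and missing peaks.

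Groups were taken from sample titles. Peaks met where they shared at least 1 bp. Shared length was divided by the joint length of a pair. Every peak of the window was accounted for; named in full were sites with a KO peak, sites of both WT lists, the highest site of each WT list, the nearest peaks outside, and the 3 highest other KO regions, and further peaks were named after their values were seen. Members and comparisons were chosen with earlier results of these data known. With 1 KO library, no test across samples could be made. Overlap functions were tested on simulated data. Software was numpy 2.4.6 and scipy 1.17.1 under Python 3.11.15, with figures from matplotlib 3.10.9. Alternatives were a score of at least 100, joining peaks of a list within 500 bp, midpoints within 250 bp, a reciprocal overlap of at least 50%, a window widened by 50 kb, windows offset by 120 kb, joining KO peaks within 25 or 100 kb, a width limit of 800 bp, and leaving out each WT replicate.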

Additional observations from a re-analysis of the deposited data

How the results depend on the processing

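Of 66 values recomputed under the alternatives, 58 stayed within 1.5 times the reported count or within the interval of the reported share. This number is not a measure of robustness. The window widened by 50 kb took in no further peak, so no value could change there. The intervals of the shares were wide, for example 35.9 to 99.6% for replicate 2 peaks met by replicate 1, so large shifts stayed inside them. The number of sites was 6 to 11 when a WT replicate was left out, 6 without replicate 1. The share of the window's replicate 1 peaks met by the KO peak became 0 with scores of at least 100. It also became 0 with a reciprocal overlap of at least 50% and with midpoints within 250 bp. The replicate 1 peak of site J has a score below 100, is narrower than the KO peak and crosses only its end. The same settings left 4 sites in both WT lists, and the KO and replicate 2 peaks of site J still met. Peaks of at least 1000 bp numbered 54 in replicate 1 and 17 in replicate 2 after joining peaks within 500 bp, and 18 and 15 with a limit of 800 bp; wide KO peaks met by a wide replicate 2 peak stayed at 5 or 6. No paired analysis was possible because only the WT ChIP group has numbered peak lists and the KO list is single. Depth is unknown and limits every statement on a missing peak.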
